A study of Capsella rubella with 6 samples.

Results

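A set of 25 genes was transcribed mainly from the paternal genome in the endosperm of both directions of a cross between 2 accessions of *Capsella rubella*, a self-fertilising relative of Arabidopsis. The genes were chosen by their maternal share, the maternal reads of a gene divided by its maternal plus paternal reads at single-nucleotide polymorphisms (SNPs) that tell the parents apart. A gene was taken when it had at least 20 such allelic reads and a maternal share of at most 33% in each of 4 libraries. The rule found 25 genes among the 6990 that had 20 reads in each library, which is 0.358% of them, and 12641 genes held at least 1 SNP. Since the rule used the maternal share of all 4 libraries, these shares are given as a description and carry no test.

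Endosperm is the seed tissue that feeds the embryo, and it holds 2 maternal genome copies for 1 paternal copy. A gene transcribed equally from every copy would therefore have a maternal share of 66.7%. In imprinted genes the 2 parental alleles differ in activity according to the parent they came from, and paternally expressed genes are those in which the maternal allele is the more silent one. In Arabidopsis endosperm many paternally expressed genes carry repressive Polycomb marks on the maternal allele, where DNA methylation was removed in the female gametophyte. Crossing both ways separates such an effect from one of the accession, because each accession serves once as mother and once as father.

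The tested libraries were endosperm RNA of Cr A x Cr B (Cr48.21 by Cr75.2) and of Cr B x Cr A (Cr75.2 by Cr48.21), with 2 replicates each. Pistils of emasculated flowers were pollinated by hand 2 days later, seeds were taken 6 days after pollination, and a replicate pooled the endosperm of 300 to 500 seeds. The labels do not say that replicates came from separate plants, so the spread between them may be technical. Cross names were read as female x male, which the labels do not state. The maternal share does not depend on that reading. Read the other way, the 2 accessions would swap in each result on the accession of the allele. Another 2 samples were leaf DNA of Cr A and of Cr B, whose reads were not analysed here.

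Replicates 1 and 2 had 8122761 and 11702341 allelic reads in Cr A x Cr B, against 9524883 and 11637156 in Cr B x Cr A. Over the 6990 genes the maternal share had a median of 69.3% and 67.8% in the Cr A x Cr B replicates, against 69.6% and 72.2% in the Cr B x Cr A replicates. The most maternal library was thus Cr B x Cr A replicate 2, and it was also the highest for most of the genes described here. Markers of seed coat, embryo and endosperm could not be looked up, because the tables used here pair no gene names with the intervals. The labelled tissue therefore rests on the labels, and the part of any other seed tissue in the shares was not tested. For the same reason genes are called P1 to P25, by rising mean maternal share, and are identified by their position in the authors' tables. The genome build behind these coordinates was not given in the sources used here.

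Within the 25 genes the maternal share ran from near absence of the maternal allele up to the bound. The mean over the 4 libraries was at most 5% in 1 gene, between 5% and 10% in 8 genes, between 10% and 20% in 7 and between 20% and 33% in 9. Their median share was 15.1% and 9.75% in Cr A x Cr B (12.4% ± 3.8, SD, n = 2), against 12.8% and 19.9% in Cr B x Cr A (16.4% ± 4.99, SD, n = 2). In no library did the highest member exceed 32.8%, the value of P19 in Cr B x Cr A replicate 2. Lowest values were 0.833% and 0% in Cr A x Cr B, against 0% and 4.91% in Cr B x Cr A. Reads behind these shares differed widely, from 20 in the shallowest gene and library to 53475 in the deepest, and 7 of the genes had fewer than 50 maternal reads over all 4 libraries. Reads over several SNPs count once for each of them. The exact binomial intervals given here cover no more than counting error, and in genes with several SNPs they are too narrow even for that.

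**Figure D1:**
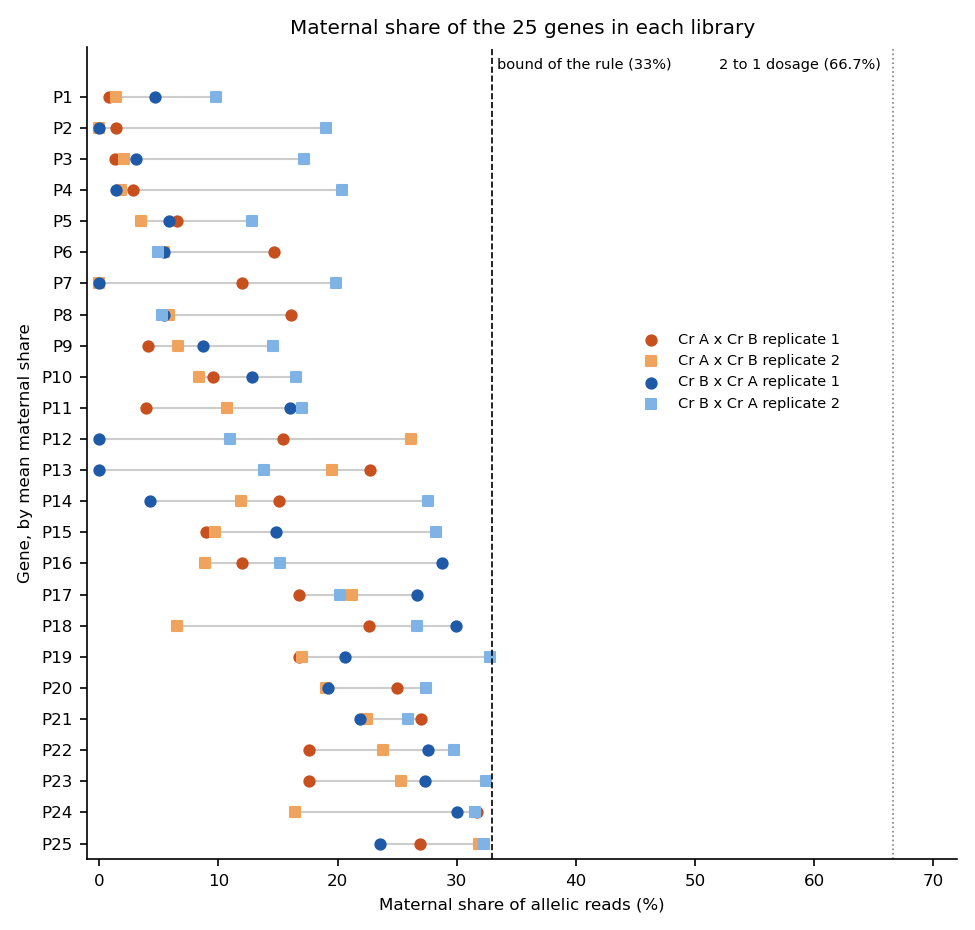
Maternal share of allelic reads (percent, horizontal axis) of the 25 genes, 1 row per gene from P1 to P25, with 1 point per library and a grey line over their range. All points lie left of the dashed 33% bound that chose them and far from the dotted 66.7% of the 2 to 1 dosage, and the light blue squares of Cr B x Cr A replicate 2 are the rightmost point in 16 of the 25 rows.

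In the 5 genes with the lowest mean share the maternal share was at most 6.55% in 3 of the 4 libraries. P1 (scaffold 2, 7867925 to 7869436, minus strand, 1 SNP) had a maternal share of 0.833% and 1.42% in Cr A x Cr B, against 4.65% and 9.82% in Cr B x Cr A. P2 (scaffold 6, 4471852 to 4472738, minus strand, 1 SNP) stood at 1.37% and 0% in Cr A x Cr B, against 0% and 19% in Cr B x Cr A. Its 0 of 131 reads allows a share of up to 2.29% in Cr A x Cr B replicate 2 and its 0 of 35 reads up to 8.57% in Cr B x Cr A replicate 1. A share of 19% in Cr B x Cr A replicate 2, with 63 maternal reads of 332 (95% exact interval 14.9% to 23.6%), lay above both limits. P2 therefore had few or no maternal reads in 3 libraries and more in 1.

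Cr B x Cr A replicate 2 was also the highest library for the next genes in order. P3 (scaffold 7, 11097355 to 11102864, minus strand, 15 SNPs) had a share of 1.28% and 2.05% in Cr A x Cr B, against 3.12% and 17.2% in Cr B x Cr A. For P4 (scaffold 3, 7569897 to 7572887, plus strand, 1 SNP) the shares were 2.86% and 1.84% in Cr A x Cr B, against 1.41% and 20.4% in Cr B x Cr A. P5 (scaffold 2, 10071410 to 10074104, plus strand, 1 SNP) gave 6.55% and 3.47% in Cr A x Cr B, against 5.82% and 12.8% in Cr B x Cr A, with 2467 to 4684 reads in each library. In P2 to P5 the first replicate of Cr B x Cr A lay close to the Cr A x Cr B replicates, and the second stood apart.

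P6 and P8 differed from these, with their highest share in Cr A x Cr B replicate 1. P6 (scaffold 7, 16674961 to 16675887, plus strand, 3 SNPs) had 14.7% and 5.43% in Cr A x Cr B, against 5.41% and 4.91% in Cr B x Cr A. P8 (scaffold 7, 3283770 to 3290676, minus strand, 1 SNP) had 16.1% and 5.88% in Cr A x Cr B, against 5.41% and 5.26% in Cr B x Cr A. Those high values rest on 34 reads of P6 and 31 reads of P8. P7 (scaffold 8, 8360850 to 8362722, plus strand, 10 SNPs) was the shallowest of all, with 20 to 166 reads, and stood at 12% and 0% in Cr A x Cr B, against 0% and 19.9% in Cr B x Cr A. Its 2 zeros allow shares of up to 6.82% and 15%, so the low libraries of P7 could not be told apart at this depth. As its reads are summed over 10 SNPs, these limits can be too low.

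P9 and P15 were the genes with the most reads. P9 (scaffold 1, 11452090 to 11454311, plus strand, 5 SNPs) had 13569 to 26190 reads in each library. Its maternal share was 4.12% (exact interval 3.81% to 4.45%) and 6.57% (6.27% to 6.87%) in Cr A x Cr B, against 8.74% (8.27% to 9.23%) and 14.6% (14.2% to 15.1%) in Cr B x Cr A. P15 (scaffold 2, 7693692 to 7697039, plus strand, 18 SNPs) had 37346 to 53475 reads and a share of 8.98% and 9.75% in Cr A x Cr B, against 14.8% and 28.3% in Cr B x Cr A. In both genes the Cr A x Cr B values, summed over SNPs, lay below both Cr B x Cr A values. For P15 this order did not hold at every exon SNP, as given below. P10 (scaffold 8, 3242167 to 3244504, minus strand, 4 SNPs) had the same order at low depth, with 9.52% and 8.33% in Cr A x Cr B, against 12.8% and 16.5% in Cr B x Cr A.

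P12, P13, P14 and P16, with a mean share between 10% and 20%, had wide gaps between libraries or directions. P12 (scaffold 8, 6513180 to 6514406, minus strand, 3 SNPs) had 15.4% and 26.2% in Cr A x Cr B, against 0% of 23 reads and 11% in Cr B x Cr A. P13 (scaffold 2, 8542844 to 8544800, plus strand, 17 SNPs) had 22.7% and 19.5% in Cr A x Cr B, against 0% of 165 reads and 13.8% in Cr B x Cr A. P12 and P13 were the genes whose Cr A x Cr B mean exceeded the Cr B x Cr A mean by the most, by 15.3 and 14.2 points. P14 (scaffold 4, 2097137 to 2100529, plus strand, 6 SNPs) stood at 15.1% and 11.9% in Cr A x Cr B, against 4.26% and 27.6% in Cr B x Cr A. P16 (scaffold 5, 2069818 to 2071507, plus strand, 10 SNPs) stood at 12% and 8.84% in Cr A x Cr B, against 28.8% and 15.2% in Cr B x Cr A. In P14 the 2 Cr B x Cr A replicates enclosed both Cr A x Cr B values, while in P16 both lay above them.

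Nearer to the bound, P18 (scaffold 8, 1941468 to 1946062, minus strand, 2 SNPs) had 22.6% and 6.54% in Cr A x Cr B, against 29.9% and 26.7% in Cr B x Cr A. P20 (scaffold 2, 8545540 to 8547678, plus strand, 6 SNPs) had 25% and 19% in Cr A x Cr B, against 19.2% and 27.4% in Cr B x Cr A. Groups did not overlap in P18 and did in P20. P11, P17, P21, P22 and P24 fell outside the rule for named genes and are listed here so that all 25 are accounted for. P11 (scaffold 7, 10544636 to 10545973, plus strand, 4 SNPs) had 3.94% and 10.7% in Cr A x Cr B, against 16% and 17% in Cr B x Cr A. P17 (scaffold 6, 7913733 to 7917366, plus strand, 11 SNPs) had 16.8% and 21.2% in Cr A x Cr B, against 26.7% and 20.2% in Cr B x Cr A. Crosses did not overlap in P11 and did in P17. P21 (scaffold 8, 373818 to 377389, minus strand, 3 SNPs) had 27% and 22.5% in Cr A x Cr B, against 21.9% and 25.9% in Cr B x Cr A. P22 (scaffold 5, 3675882 to 3677913, minus strand, 8 SNPs) had 17.6% and 23.8% in Cr A x Cr B, against 27.6% and 29.8% in Cr B x Cr A. P24 (scaffold 4, 12076839 to 12080973, minus strand, 3 SNPs) had 31.7% and 16.4% in Cr A x Cr B, against 30% and 31.5% in Cr B x Cr A. P21 had the narrowest range of all 25 genes, 5.08 points, and of P21, P22 and P24 the crosses did not overlap in P22.

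The bound cut through a continuous range of values. Just inside it were P19 (scaffold 8, 8243665 to 8245209, plus strand) with a highest share of 32.8%, P23 (scaffold 7, 16892846 to 16893373, minus strand) with 32.5% and P25 (scaffold 4, 1665324 to 1667956, minus strand) with 32.3%. P19 had 16.8% and 17% in Cr A x Cr B, against 20.6% and 32.8% in Cr B x Cr A. P23 had 17.6% and 25.3% in Cr A x Cr B, against 27.3% and 32.5% in Cr B x Cr A. P25 was more even, with 26.9% and 31.9% in Cr A x Cr B, against 23.6% and 32.3% in Cr B x Cr A. Just outside lay a gene on scaffold 5 (282939 to 285639, plus strand) at a highest share of 34.9%, one on scaffold 3 (4838326 to 4842963, minus strand) at 35.9% and one on scaffold 7 (10736069 to 10737379, plus strand) at 37.7%. A bound of 40% would have added 8 genes.

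**Figure D2:**
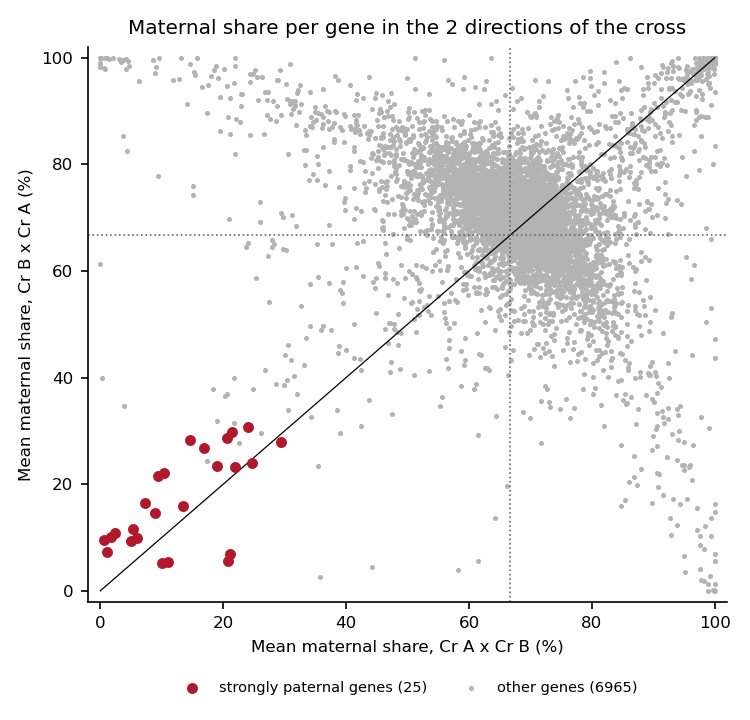
Mean maternal share of each gene over the 2 Cr A x Cr B libraries (percent, horizontal axis) and over the 2 Cr B x Cr A libraries (percent, vertical axis), with the 25 genes in red and the other genes with 20 reads in each library in grey. The 25 genes fill the lower left corner that the rule cut out, the bulk of genes surrounds the dotted 66.7% lines, and more of the red points lie above the diagonal of equal shares than under it.

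How far the choice depends on the replicate was seen by applying the bound to 1 replicate number at a time. In the replicate 1 libraries of both crosses 31 genes met it, of which 30 had 20 reads in each replicate 2 library and 25 of those (83.3%) met it there too. In the replicate 2 libraries 71 genes met it, of which 45 had the reads in replicate 1 and 25 (55.6%) met it there. Both times these 25 are the chosen genes themselves, because the rule asks for the bound in both replicates. The counts therefore describe the list and do not test it. Of all 6990 genes, 0.644% met the bound in the replicate 2 libraries and 0.429% in the replicate 1 libraries. Genes that met it once and not again were not all near it, since the highest share reached 68.8% in replicate 2 and 73.1% in replicate 1.

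The authors' deposited tables hold a p-value and a maternal ratio per gene and library. That ratio equals maternal reads divided by 2 over the same value plus paternal reads, so 0.5 stands for the 2 to 1 dosage. In the authors' deposited tables all 25 genes had p under 0.05 and a ratio under 0.5 in each library, with a highest ratio of 0.196 and a highest p of 1.74e-07. As the ratio is made from the same reads as the maternal share, the bound of the rule held it under 0.5, and these counts only describe the genes. There were 95 genes that passed both in the authors' deposited tables among those with 20 reads in each library. These p-values are given per library and hold no spread between replicates. In a model of both replicates (edgeR quasi-likelihood test on maternal and paternal columns) 1.71% of 8597 tested genes were less maternal than 2 to 1, and all 25 genes were among them, as the rule used this contrast. Their fitted log2 deviation from 2 to 1 ran from -5.88 to -2.32 with a median of -3.68.

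The level of each allele showed where the libraries differed. Levels are reads of that allele per 1000000 allelic reads in genes (RPM), and they are compared between libraries for the same gene and not between genes. The median maternal level of the 25 genes was 3.58 and 6.6 RPM in Cr A x Cr B, against 2.38 and 15.8 RPM in Cr B x Cr A. Paternal levels had a median of 19.1 and 22.4 RPM in Cr A x Cr B, against 18.7 and 37.1 RPM in Cr B x Cr A. Cr B x Cr A replicate 2 thus had the highest median for both alleles. It held the highest maternal level in 18 of the 25 genes, against 35% of the 6990 genes, and the highest paternal level in 11 genes, against 21.4% of the 6990. What set Cr B x Cr A replicate 2 apart was not tested. In bulk endosperm, more cells that transcribe a gene and more RNA per cell cannot be told apart.

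**Figure D3:**
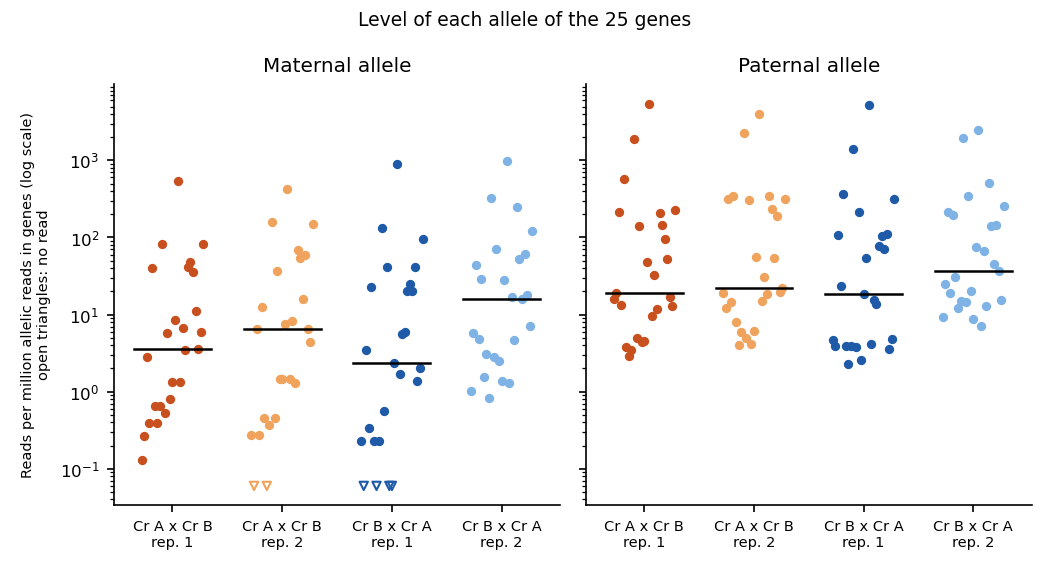
Level of the maternal (left) and paternal (right) allele of the 25 genes in each library, in RPM on a log axis, with 1 point per gene, a black bar at the median, and open triangles for genes with no maternal read. Maternal medians stand at 3.58 and 6.6 RPM in Cr A x Cr B and at 2.38 and 15.8 RPM in Cr B x Cr A, and the triangles fall in Cr A x Cr B replicate 2 (2 genes) and Cr B x Cr A replicate 1 (4 genes).

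Single genes differed in which allele of Cr B x Cr A replicate 2 stood further apart from the other libraries, and in P3 and P4 it was the maternal one. The maternal level of P3 was 2.78 and 6.6 RPM in Cr A x Cr B, against 3.51 and 43.6 RPM in Cr B x Cr A, and its paternal level was 214 and 315 RPM in Cr A x Cr B, against 109 and 211 RPM in Cr B x Cr A. For P4 the maternal level was 0.397 and 0.275 RPM in Cr A x Cr B, against 0.34 and 4.88 RPM in Cr B x Cr A. In P6, P8 and P12 it was the paternal one. P12 had a maternal level of 0.795 and 1.47 RPM in Cr A x Cr B, against 0 and 2.49 RPM in Cr B x Cr A, and a paternal level of 4.37 and 4.12 RPM in Cr A x Cr B, against 2.61 and 20.1 RPM in Cr B x Cr A. P15 differed from both kinds, as its maternal level of 538 and 429 RPM in Cr A x Cr B was below 895 and 972 RPM in Cr B x Cr A in both replicates. Its paternal level of 5450 and 3968 RPM in Cr A x Cr B stood beside 5162 and 2466 RPM in Cr B x Cr A. For P15 the highest maternal and the lowest paternal level were thus both in Cr B x Cr A replicate 2.

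Across the list, the maternal share was highest in Cr B x Cr A replicate 2 for 16 of the 25 genes (64%), against 38.2% of all 6990 genes. The share pooled over the reads of all 25 genes was 9.1% and 10.7% in Cr A x Cr B, against 14% and 23.6% in Cr B x Cr A, and P15 and P9 hold most of these reads. Without Cr B x Cr A replicate 2, an alternative added after seeing the data, the median share in Cr B x Cr A was 12.8%, against 16.4% with it. Both Cr A x Cr B values lay below both Cr B x Cr A values in 11 genes, against 37.4% of the 6990, and above them in 4 genes, against 23.1%. The numbers of genes for either order are therefore near those of genes at large. No test was made on a single gene's shares, because the smallest two-sided p of an exact permutation of 2 libraries against 2 is 0.333.

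Whether the parental ratio differed between the directions of the cross was tested across all genes in the same model, where it is also the difference between the Cr A and the Cr B allele. The rule did not use this contrast, but its bound in each library limits how large it can be. Of 8597 tested genes, 14.5% passed an adjusted p of 0.05 in either direction, 439 with the Cr A allele higher and 804 with the Cr B allele higher. Among the 6990 genes with 20 reads in each library, from which the 25 come, 16.5% passed. None of the 25 genes passed (lowest adjusted p = 0.0537 for P1, edgeR). At an unadjusted p under 0.05 there were 7 of the 25 (P1, P2, P3, P9, P11, P15 and P19), against 28% of all tested genes, and DESeq2 called 4 (P3, P9, P11 and P15), against 17.4% of the genes it tested. All 7 had the Cr B allele higher, the direction that 17.9% of all tested genes took at this threshold.

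The log2 ratio of the Cr A to the Cr B allele was below 0 in 19 of the 25 genes, against 57.4% of all tested genes, with a median of -0.41, against -0.08 over all. Without Cr B x Cr A replicate 2 it was below 0 in 14 of the 25, against 53.1% of the genes tested then, with a median of -0.18. P1 had -1.38 (SE 0.36), P2 -2.09 (SE 0.70, adjusted p = 0.105, and 0.43 without Cr B x Cr A replicate 2) and P15 -0.67 (SE 0.19, adjusted p = 0.0686). P12 and P13 had the opposite sign, at 0.77 (SE 0.44, adjusted p = 0.319) and 1.13 (SE 0.67, adjusted p = 0.342). Calls and directions depended on single libraries. Without Cr B x Cr A replicate 1, P2, P3, P4, P9, P15 and P19 passed with the Cr B allele higher, with adjusted p of 0.0275 for P2 (0.0275 to 0.726 over its alternatives), 0.00843 for P3 (0.00843 to 0.294) and 0.00713 for P15 (0.00439 to 0.221). Without Cr B x Cr A replicate 2, P13 and P14 passed with the Cr A allele higher and the ratios of P2, P4 and P7 turned above 0, while leaving out Cr A x Cr B replicate 1 let P18 pass and leaving out Cr A x Cr B replicate 2 let P11 pass.

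**Figure D4:**
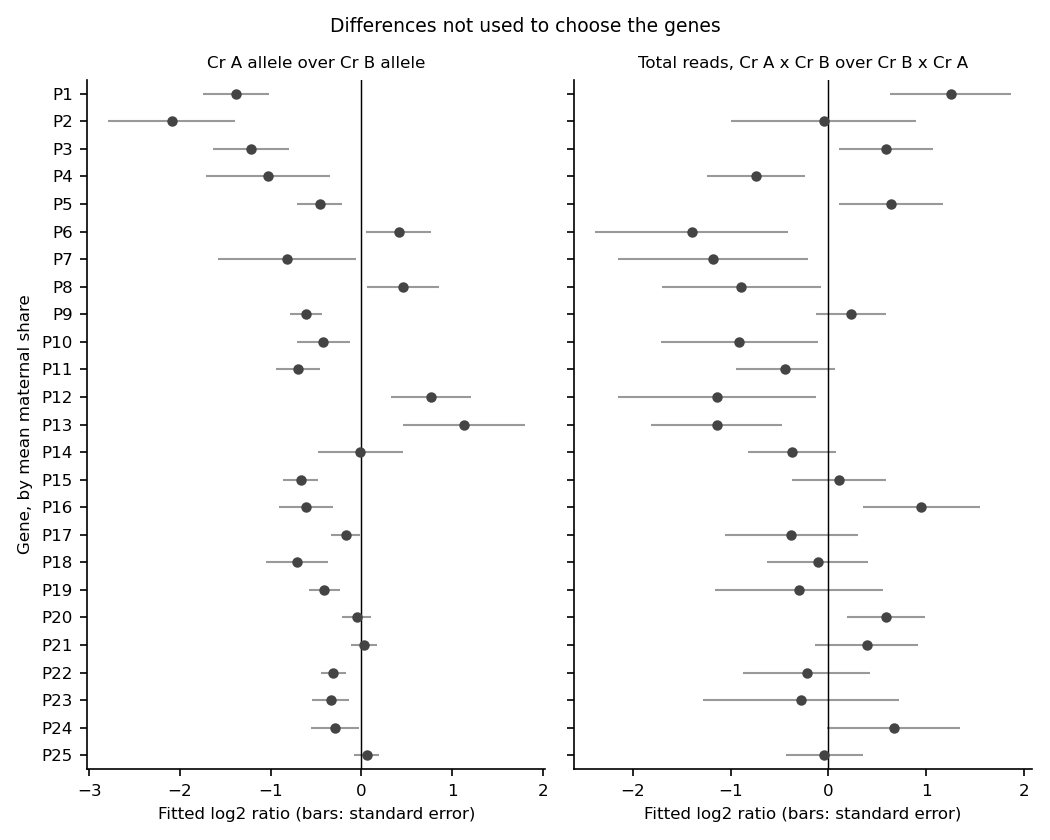
Fitted log2 ratio of the Cr A over the Cr B allele (left) and of total allelic reads in Cr A x Cr B over Cr B x Cr A (right) for the 25 genes, with bars of 1 standard error. Points lie left of 0 for 19 genes in the left panel (14 without Cr B x Cr A replicate 2) and for 16 genes in the right panel (7 without it), and none passed the adjusted threshold in either. A fit of total reads with a term for replicate number, not drawn, put 13 genes below 0.

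The summed level of both alleles did not pass the test between the crosses for any of the 25 genes. No gene passed among 9040 tested (0% of genes, edgeR with adjusted p), 1.36% had an unadjusted p under 0.05, and none of the 25 was among these. DESeq2 called 23 genes over all and none of the 25. The median total level was 20.3 and 26.8 RPM in Cr A x Cr B, against 21.2 and 54.9 RPM in Cr B x Cr A, so the libraries of Cr B x Cr A differed more from each other than the crosses did. Fitted differences were largest at 1.25 on the log2 scale (SE 0.62) for P1 and at -1.40 (SE 0.99) for P6. P1 had 15.9 and 19.4 RPM in Cr A x Cr B, against 4.87 and 10.3 RPM in Cr B x Cr A, and these groups did not overlap. P6 had 4.5 and 8.43 RPM in Cr A x Cr B, against 4.19 and 31.8 RPM in Cr B x Cr A, and its high value was that of Cr B x Cr A replicate 2, without which its fitted difference was 0.53. Total fitted differences were below 0 in 16 of the 25 genes with all libraries, against 53% of all tested genes, and in 7 without Cr B x Cr A replicate 2, against 49%. With a term for replicate number added to the fit they were below 0 in 13, against 50.2%. Groups did not overlap in 5 of the 25 genes, against 24.9% of the 6990, and the median SE of 0.62 on the log2 scale shows how coarse the comparison was.

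Single SNPs showed whether a low share held along a gene. The 25 genes held 140 SNPs, 73.6% of them in the exons the tables list, against 73.5% over the 6990 genes. There were 7 genes with 1 SNP. In the 9 genes with at least 2 SNPs of 20 reads in each library there were 43 such SNPs, of which 35 were at most 33% in each library and 42 at most 50%. Every such SNP met the bound in 5 of the 9 genes. As the rule summed these same reads, the counts only describe the genes. Between SNPs of a gene the mean share ranged over a median of 5.15 points in these genes, against 6.25 points in 3569 genes with at least 2 such SNPs. The bound holds the shares of the 25 genes low, which limits such a range. SNP numbers were not matched either, so the 2 medians are not like for like.

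**Figure D5:**
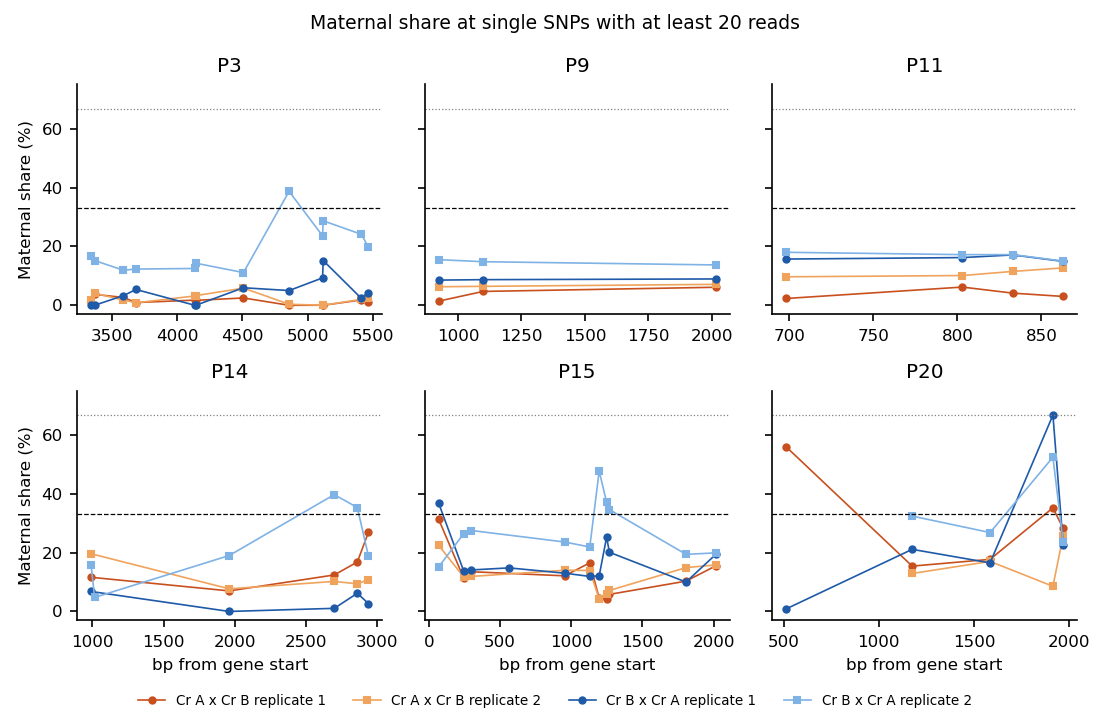
Maternal share (percent, vertical axis) at each SNP with at least 20 reads in a library, by distance from the start of the gene in its own strand (bp), in 6 genes with several such SNPs. The lines are flat in P9 and P11, the lines of P15 part between 1196 and 1268 bp, and P20 has single SNPs above the dashed 33% bound, while the dotted line marks 66.7%.

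P9 and P11 were even along several SNPs in their mean over libraries. The mean share over libraries of P9 was 7.92% to 8.96% at 3 SNPs, and that of P11 was 11.4% to 12.5% at 4 SNPs. Within Cr A x Cr B replicate 1 they were less even. There P9 had 1.4% at 923 bp, 4.7% at 1099 bp and 6.12% at 2016 bp, each on at least 4067 reads. P11 ran from 2.3% to 6.18% in that library. P3 stayed between 4.35% and 11% at 11 SNPs, although 1 of them reached 38.7% in Cr B x Cr A replicate 2. No SNP of P9 or P11 with 20 reads in each library exceeded 18% in any library. P14 had 5 such SNPs, of which 3 were at most 33% in each library, and its highest value was 39.7% in Cr B x Cr A replicate 2. P15 had 10, of which 6 were at most 33% in each library, with a highest value of 47.7% in Cr B x Cr A replicate 2.

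P15 had a stretch of 3 exon SNPs that stood apart from most other exon SNPs of the gene. At 1196 bp from its start the share was 4.48% and 4.2% in Cr A x Cr B, against 12.1% and 47.7% in Cr B x Cr A. For the SNP at 1248 bp it was 4.34% and 6.01% in Cr A x Cr B, against 25.2% and 37.1% in Cr B x Cr A. For comparison, the SNP at 245 bp had 11.3% and 11.7% in Cr A x Cr B, against 13.7% and 26.4% in Cr B x Cr A. Crosses were further apart at 1196 and 1248 bp than at 245 bp, and each value there rests on at least 1376 reads. Read numbers also differed at this stretch, with 7693 and 5265 at 1196 bp in Cr A x Cr B, against 1376 and 2214 in Cr B x Cr A, whereas 245 bp had 2076 and 4509 reads in Cr A x Cr B, against 11154 and 4277 in Cr B x Cr A. Counted by its deepest SNP alone, the one at 1248 bp, P15 passed the accession test with the Cr B allele higher (log2 of -1.53, adjusted p = 0.00439, edgeR, over a range of 0.00439 to 0.221 in the alternatives tried). How reads with either base were aligned there was not tested. The exon SNP of P15 at 68 bp also stood apart, in another way. It had 31.4% and 22.5% in Cr A x Cr B, against 36.9% and 15.1% in Cr B x Cr A, on 175 to 834 reads. Its share was thus lowest in Cr B x Cr A replicate 2, where the share of the stretch was highest.

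P20 was less even. Its SNP at 1914 bp, in a listed exon, had 35.2% and 8.55% in Cr A x Cr B, against 66.7% of 36 reads and 52.4% in Cr B x Cr A. Another at 512 bp, outside listed exons, had 56% and 31.6% in Cr A x Cr B, against 0.833% and 0% in Cr B x Cr A, on 25 and 19 reads in Cr A x Cr B and 120 and 18 reads in Cr B x Cr A. For its deepest SNP, at 1584 bp, the share was 17.7% and 17% in Cr A x Cr B, against 16.5% and 26.8% in Cr B x Cr A. All other exon SNPs of P20 were at most 33% in each library. P3, P14, P15, P20 and P22 had 20 reads in each library both in listed exons and in the rest of the interval. P3 was alike in both, with 1.12% and 2.15% in exons in Cr A x Cr B, against 2.89% and 18.4% in Cr B x Cr A, and outside exons 2.03% and 1.57% in Cr A x Cr B, against 3.65% and 11.8% in Cr B x Cr A. P15 was not, with 8.98% and 9.75% in exons in Cr A x Cr B, against 14.8% and 28.3% in Cr B x Cr A, and outside exons 6.52% and 5.63% in Cr A x Cr B, against 29.8% and 38.8% in Cr B x Cr A, on 46 to 84 reads. P20 outside exons had 56% and 31.8% in Cr A x Cr B, against 0.833% and 0% in Cr B x Cr A, while its exons had 24.5% and 18.9% in Cr A x Cr B, against 21.3% and 27.7% in Cr B x Cr A. P14 had 6.98% and 21.2% outside exons in Cr A x Cr B, against 4% and 16.9% in Cr B x Cr A, on 33 to 142 reads. P22 had 26.2% and 34.5% outside exons in Cr A x Cr B, against 21.3% and 43.2% in Cr B x Cr A. These values of P22 rest on 42 to 87 reads in a library, summed over 6 SNPs. Reads outside exons thus exceeded the 33% bound in some library for P15, P20 and P22 and in none for P3 and P14.

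In SNP number, reads per SNP and strand the 25 genes were near genes at large, while their intervals were shorter and their lowest library held fewer reads. Intervals had a median of 2222 bp, against 2710 bp over the 6990 genes, and 4 SNPs, against 3. The median of the lowest library was 115 reads, against 221. Reads per SNP had a median of 487, against 476, and 13 genes (52%) were on the plus strand, against 50.4%. They lay on scaffolds 1 to 8, with 6 on scaffold 8, 5 each on scaffolds 2 and 7, 3 on scaffold 4, 2 each on scaffolds 5 and 6 and 1 each on scaffolds 1 and 3. Scaffold 1 held 1105 of the 6990 genes and scaffold 8 held 693.

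As far as genes with 20 reads in each library show, the 25 genes mostly stood alone among genes near the 2 to 1 dosage. P13 and P20, both on the plus strand of scaffold 2, were 739 bp apart and were the only pair within 50 kb. Over both sides of the 25 genes, the nearest gene with 20 reads in each library gave 50 neighbours, of which 2 were these same 2 genes. The median gap to a neighbour was 10518 bp, against 5938 bp over the 6990 genes, and genes with fewer reads in between were not seen. The mean maternal share of the other neighbours had a median of 66.9%, with the middle 50% of them between 62.8% and 69.3%, against a median of 68.9% over the 6990 genes. One neighbour was at most 50% in each library. It lay 130 bp from P6 on the opposite strand (scaffold 7, 16676018 to 16677365), with 33.3% and 11.7% in Cr A x Cr B, against 38.2% and 17.2% in Cr B x Cr A. No neighbour was at 85% or more in each library.

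Intervals that overlap can share reads, since nothing in the labels says that strand was used in counting. P18 overlapped a plus strand gene (scaffold 8, 1940585 to 1943443) and P25 another (scaffold 4, 1662356 to 1665372). None of the SNPs of P18 or P25 lay in the overlap. Whether reads of near-identical copies elsewhere entered any of the 25 genes was not tested.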

How the data were processed

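Endosperm RNA was measured in 4 libraries, 2 for each direction of the cross. Trimmomatic, Bowtie 1.0 and TopHat are named, without their roles, per the submitters' processing notes, while build and allele calling are not given in the sources used here. Base counts per SNP, without a header, are what the authors deposited for each library. The leaf DNA samples carry another 2 tables, with maternal and paternal counts of reads at each SNP of both crosses, gene and exon intervals, a p-value and a fraction (the maternal ratio), per the file headers. Their suffixes were tied to libraries by site and count: at least 99.99% of sites were equal with the own library and at most 5.82% with another.

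Read counts were summed per gene interval. Sites in no gene (17504 of 71169, with 6.91% of allelic reads) stayed out of the tests. Allele tests used edgeR 4.0.16 in R 4.3.3, with the quasi-likelihood F test, on 8 columns (maternal and paternal reads of each library, offset 2 to 1) with terms for library, parent and accession, in genes with 20 reads in each cross, which left 2 residual degrees of freedom. Total reads were tested with TMM normalisation and filterByExpr. P-values were adjusted by Benjamini-Hochberg over all genes tested, at 0.05. Standard errors are the log2 estimate over the square root of F. DESeq2 1.42.0, other filters, single sites, exon sites and left-out libraries were alternatives. Intervals are exact (Clopper-Pearson, 95%), and a share of 0 has the limit set by 3 reads. All fits were also run on simulated counts. The size of the fitted log2 ratios was checked there for each test, but recovery of changed genes was required for the allele tests only. No limit was set on false calls.

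Members, lists and rules were chosen with earlier results of these data known. Named were the 10 genes with the lowest mean share, the 5 with the most reads in their lowest library, those past a test, the 5 with the largest difference between crosses, the 3 with the largest spread, pairs within 50 kb and the 3 genes on each side of the bound. Lists of Arabidopsis genes (imprinted, embryo, seed coat, endosperm, auxin, MADS-box type I, Polycomb, DNA methylation) could not be matched to the intervals and gave no result. Since separate plants are not stated, p-values reflect how far these pools of seeds differ.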

Additional observations from a re-analysis of the deposited data

Results flagged for a closer look

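Reads at SNPs outside listed genes entered no comparison above, and 5 such SNPs with 20 reads in each library lay within 5 kb of the genes described. They are given because they carry signal in data that the comparisons did not use. Among all 1442 SNPs of this kind 4 (0.277%) were at most 33% in each library, and none of the 5 was.

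The 2 SNPs upstream of P3 were on the paternal side of the dosage in Cr A x Cr B and less so in Cr B x Cr A. At 1328 bp before the gene (scaffold 7, 11104192) the maternal share was 28.6% and 18.1% in Cr A x Cr B, against 43.8% and 50.8% in Cr B x Cr A. Further up, at 1533 bp, it was 18.8% and 16.7% in Cr A x Cr B, against 43.4% and 47.5% in Cr B x Cr A. Groups did not overlap at either SNP.

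The 3 SNPs upstream of P14 were almost wholly maternal in Cr B x Cr A, unlike P14 itself, and spread widely in Cr A x Cr B. At 3238 bp before the gene (scaffold 4, 2093899) the share was 68.4% and 21.9% in Cr A x Cr B, against 95.9% and 96.3% in Cr B x Cr A. Next to it, at 3156 bp, it was 76.2% and 34.4% in Cr A x Cr B, against 97.8% and 100% in Cr B x Cr A. Nearest to the gene, at 1598 bp, it was 84.3% and 70.4% in Cr A x Cr B, against 93.9% and 94.8% in Cr B x Cr A. None of these differences was tested.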

How the results depend on the processing

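The number of genes that met the rule was 12 at a bound of 25% and 16 at 50 reads in each library, against 25. It was 33 at a bound of 40%, 34 at 10 reads, 24 with exon SNPs (P6 lost) and 17 with the deepest SNP of each gene, 16 of them among the 25. Leaving out a library, an alternative added after seeing the data, gave 25 to 39 genes, with 39 without Cr B x Cr A replicate 1. In the accession test over all genes, leaving out a library gave 207 to 349 genes with the Cr A allele higher, against 439, and 306 to 669 with the Cr B allele higher, against 804. Among the 25 genes these counts were 0 to 2 for the Cr A allele and 0 to 6 for the Cr B allele. DESeq2 called 4 of the 25 and the deepest SNP 1, all with the Cr B allele higher. The cause was not tested, and each left-out library also left fewer samples.

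Of 138 accession values of the 20 named genes under alternatives, 115 kept direction and call, 12 came to pass the threshold and 11 changed sign, of which P14 without Cr B x Cr A replicate 2 passed it (0.89, adjusted p = 0.0498, 0.0498 to 1 over its alternatives). With a library left out, the accession log2 values whose sign changed ranged from -3.38 to 0.43 for P2, -1.70 to 0.35 for P4, -2.66 to 1.35 for P7, -0.65 to 0.89 for P14, -0.22 to 0.12 for P20 and -0.10 to 0.21 for P25. P14 was also 0.09 by DESeq2, and P23 was 0.15 at its deepest SNP. Of 179 total values 160 kept direction and 19 changed sign, and none passed. With a library left out they ranged from -0.84 to 1.91 for P2, -2.20 to 0.53 for P6, -1.94 to 0.61 for P7, -1.50 to 0.21 for P8, -1.53 to 0.24 for P10, -1.95 to 0.96 for P12, -0.67 to 0.02 for P14, -0.30 to 0.72 for P15, -0.27 to 0.09 for P18, -1.10 to 1.66 for P19, -1.14 to 2.13 for P23 and -0.29 to 0.20 for P25. The replicate block gave 0.42 for P2, 0.24 for P19 and 0.43 for P23.

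In the total test DESeq2 called 14 genes higher in Cr A x Cr B and 9 higher in Cr B x Cr A, no filter on low reads 2 and 3, and the replicate block 3 and 2, against 0 and 0, with none of the 25 genes in any. Replicate numbers are not said to mark a shared batch or day, and there are 2 pairs. The deviations of replicate 2 from replicate 1 correlated at 0.575 across 9040 genes between the crosses. The libraries with the same number correlated at 0.910 and 0.962, against 0.891 and 0.844 within a cross.

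Depth limits the genes with few reads: 9 of the 25 had fewer than 50 reads in some library, and a share of 0 allowed up to 15%. Where reads were summed over several SNPs, such a limit can be too low. The 2 libraries per cross limit every comparison.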

Other observations

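Some neighbours of the 25 genes, chosen here after their values were seen, had shares that spread widely over the libraries. The lower neighbour of P1 (scaffold 2, 7848912 to 7850423, minus strand, 17501 bp away) had a maternal share of 0% and 0% in Cr A x Cr B, against 67.9% and 54.7% in Cr B x Cr A. Beside P17, a gene 546 bp away (scaffold 6, 7917913 to 7921890, minus strand) had 40.8% and 27.5% in Cr A x Cr B, against 60.8% and 38.7% in Cr B x Cr A. On its other side a gene at 7908069 to 7908734 had 98.1% and 95.2% in Cr A x Cr B, against 69.8% and 52.3% in Cr B x Cr A. P4 had a lower neighbour (scaffold 3, 7561180 to 7564994, minus strand) with 27.8% and 39.2% in Cr A x Cr B, against 25.9% and 68.8% in Cr B x Cr A, so it shared with P4 the high value of Cr B x Cr A replicate 2. None of these differences was tested on its own.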
